A study of Homo sapiens with 6 samples.

Results

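The genes described here are 47 named genes of the NF-kB pathway and of inflammatory signalling: the NF-kB subunits, their inhibitors, induced genes, chemokines, cytokines, receptors and receptor-proximal adaptors. They were taken from the deposited gene table by symbol, and 46 of the 47 were found among its 17862 genes; CCL2 was not analysed here. A filter on low counts left 45 of the 46 among 13710 tested genes, and CXCL5 alone fell to it. All libraries came from 1 established human cell line, SCC-9, derived from a squamous cell carcinoma of the tongue. The shMTHFD2 cells carried a short hairpin RNA plasmid against MTHFD2, which encodes an enzyme of the folate pathway in mitochondria, and the shNC cells carried a control hairpin. Both groups had 3 libraries and were grown in DMEM/F12 with 10% serum and 400 ng/mL hydrocortisone, a glucocorticoid. The labels do not say how many hairpin sequences or clones were used, and the design text speaks of knock-out cells where the treatment label describes hairpins.

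NF-kB factors are dimers of REL-family proteins that IkB proteins hold inactive in the cytoplasm. Signals from Toll-like, interleukin-1 and tumour necrosis factor receptors lead to the destruction of IkB, and the freed dimers switch on chemokines, cytokines, adhesion molecules and the pathway's own inhibitors. Squamous carcinoma cells of the head and neck are known to secrete interleukin-1, interleukin-6, interleukin-8 and colony-stimulating factors, which draw in and sustain neutrophils and macrophages.

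Levels are given in TPM, a transcript abundance corrected for gene length and library size, in the order of replicates 1, 2 and 3. Fold changes are log2 values of shMTHFD2 over shNC with the standard error (SE) of the fit, from edgeR's quasi-likelihood test on estimated read counts, with Benjamini-Hochberg adjustment of p over all tested genes. "Rose" and "fell" mean an adjusted p under 0.05. In bulk RNA, fewer cells of a type and less RNA per cell cannot be told apart. The libraries held 18676999 to 19838989 estimated counts. MTHFD2 was at 38.5, 29.1 and 58.5 TPM in shMTHFD2, against 160.4, 168 and 149.6 TPM in shNC, so that 24.2, 18.2 and 36.7% of the control mean remained. The epithelial markers KRT14 (2666 to 3744 TPM in shMTHFD2, 2957 to 3606 TPM in shNC) and TP63 (114 to 143 TPM in shMTHFD2, 126 to 130.1 TPM in shNC) were high in every library. The leukocyte marker PTPRC was at 0.45 to 0.72 TPM in shMTHFD2 and at 0.73 to 0.99 TPM in shNC, and the T cell marker CD3D was at 0 in 4 of 6 libraries. Of the 9 immune markers found, the summed level was 14.9 to 18.9 TPM in shMTHFD2 and 17.4 to 27.0 TPM in shNC, most of it CD14, and 0 of the 3 that were tested passed the test. The 6 fibroblast markers summed to 12.5 to 24.1 TPM in shMTHFD2 and to 5.96 to 8.62 TPM in shNC, most of it COL1A1 (log2 1.31, edgeR adjusted p = 0.0654), with COL3A1 and PDGFRA at or near 0 and 0 of 3 tested past the threshold; its part in the members' differences was not tested.

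The chemokines CXCL1, CXCL2, CXCL3, CXCL5 and CXCL8 lie on chromosome 4, and their promoter sequences are shown because CXCL1, CXCL2, CXCL3 and CXCL8 were among the 12 members at least 1 log2 unit below the control mean in shMTHFD2 replicate 2, while CXCL5, a relative, was hardly detected in any library. The windows are from RefSeq (GRCh38.p14), read 5′ to 3′ in the direction of the gene. Capitals mark a match on either strand to the NF-kB decamer GGGRNWYYCC (R is A or G, N any base, W A or T, Y C or T). Here 2 matches that overlap give a run of 11 capitals. CXCL1 lies at chr4:73869269-73869368 (plus strand), CXCL2 at chr4:74099219-74099318 (minus strand), CXCL3 at chr4:74038714-74038813 (minus strand) and CXCL5 at chr4:73998714-73998813 (minus strand).
CXCL1: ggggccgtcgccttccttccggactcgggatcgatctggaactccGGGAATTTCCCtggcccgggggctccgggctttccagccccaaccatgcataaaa
CXCL2: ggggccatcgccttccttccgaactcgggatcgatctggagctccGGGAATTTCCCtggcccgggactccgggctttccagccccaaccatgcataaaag
CXCL3: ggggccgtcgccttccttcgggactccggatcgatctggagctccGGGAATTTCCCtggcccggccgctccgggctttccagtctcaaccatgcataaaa
CXCL5: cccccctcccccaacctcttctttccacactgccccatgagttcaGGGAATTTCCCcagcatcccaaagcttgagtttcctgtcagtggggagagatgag

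The match began at -79 from the transcription start in CXCL1 and CXCL3, at -78 in CXCL2 and at -91 in CXCL5. Set on the match without gaps, the 55 bases up to its end were identical at 52 positions between CXCL1 and CXCL2, at 52 between CXCL1 and CXCL3 and at 51 between CXCL2 and CXCL3. CXCL5 shared 25 of the 55 with CXCL1, and these 55 bases include the match on which the windows were set. Over all 100 bases shown, CXCL1 and CXCL2 shared 76, CXCL1 and CXCL3 93, CXCL2 and CXCL3 72, and CXCL1 and CXCL5 39. The CXCL1, CXCL2 and CXCL3 transcripts are also alike: 4.81% of the 50-base words of CXCL1, 12.5% of those of CXCL2 and 6.01% of those of CXCL3 occur in transcripts of other genes of GENCODE 29. The counting could have split some of their reads, and their separate values are uncertain to that extent. CXCL8 and IL6 words shared with other genes numbered 0.

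The next windows show the words in CXCL8, IL6 and 3 inhibitors of the pathway. In CXCL8, at chr4:73740453-73740511 (plus strand), the decamer had no match and capitals mark the nonamer GGAATTTCC, which forms part of many decamer matches. In IL6 at chr7:22727102-22727161 (plus strand), NFKBIZ at chr3:101827742-101827801 (plus strand), TNFAIP3 at chr6:137867167-137867226 (plus strand) and NFKBIA at chr14:35404796-35404855 (minus strand), capitals mark the decamer, which TNFAIP3 holds in 2 copies.
CXCL8: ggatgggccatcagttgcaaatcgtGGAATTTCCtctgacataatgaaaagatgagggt
IL6: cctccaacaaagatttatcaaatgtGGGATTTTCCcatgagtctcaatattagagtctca
NFKBIZ: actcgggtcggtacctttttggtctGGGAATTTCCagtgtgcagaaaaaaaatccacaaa
TNFAIP3: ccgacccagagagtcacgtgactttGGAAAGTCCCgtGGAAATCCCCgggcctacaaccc
NFKBIA: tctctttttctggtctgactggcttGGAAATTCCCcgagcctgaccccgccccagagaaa

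Promoter windows, 250 bases before to 50 after the start, were found for 39 of the 47 members, all but NFKBIE, RELB, CXCL16, LIF, CSF3, IL18, CCL2 and CSF1. On either strand, 16 of the 39 (41.0%) held the decamer in at least 1 window, against 7.09% of all 27305 genes, and 12 of the 39 (30.8%) held the nonamer, against 0.56%. The members were listed as genes of the NF-kB pathway and of inflammatory signalling, so these shares describe the choice of genes and not the knockdown. A match is a description of the letters and not of binding. Of the tested members, 15 held the decamer, with a median log2 fold change of -0.26 and a range of -1.13 to 0.69. The 23 tested members whose windows lacked it had a median of 0.00 and a range of -0.97 to 0.90, so that values spread widely on both sides of 0 in either set. The tested members without a window are in neither set. Their values ran from -1.31 (LIF) and -1.26 (CSF3) to 0.34 (CXCL16).

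**Figure D1:**
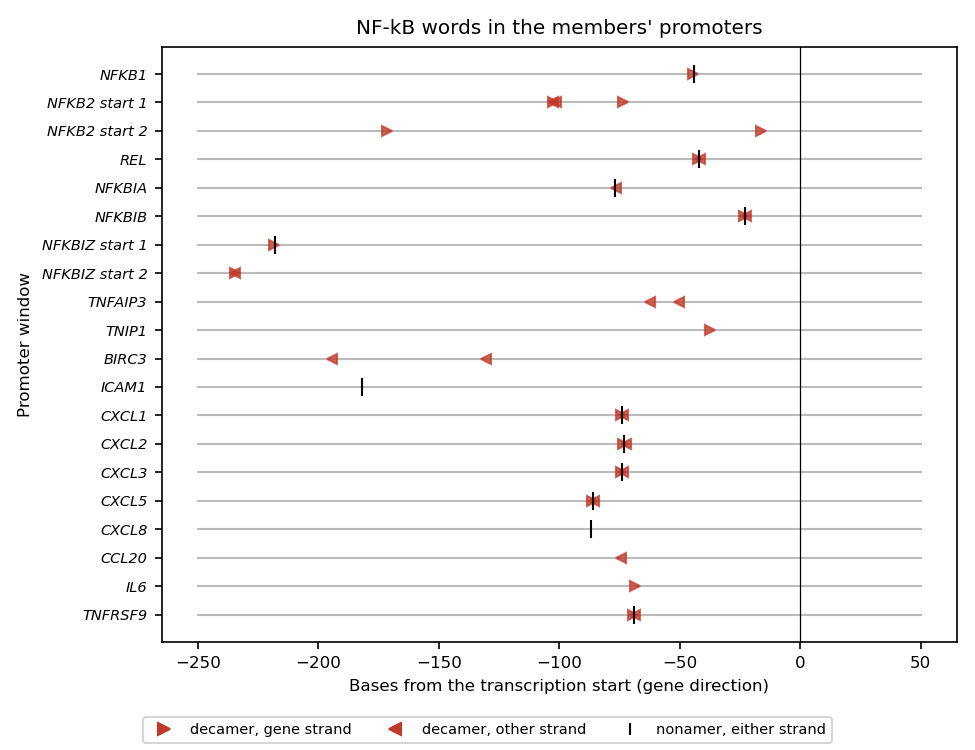
Positions of the NF-kB decamer (red triangles, pointing right on the strand of the gene) and of the nonamer (black bars) in promoter windows of the members that held either word; the x axis is the distance in bases from the transcription start, and each row is 1 RefSeq start. In CXCL1, CXCL2, CXCL3, IL6 and CCL20 the word sits between -79 and -64, while that of NFKBIZ begins at -223 or farther out.

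Of the 45 tested members, 2 rose in shMTHFD2, TNFSF10 and IRAK2, and 1 fell, NFKBIZ. Among all tested genes 2.97% rose and 2.47% fell, so the members' share of calls was near the background. All tested genes gave 407 rises and 338 falls (54.6% higher); with upper quartile scaling these were 455 and 210 (68.4% higher), with unscaled total counts 449 and 230 (66.1% higher) and with limma-trend on TPM 400 and 192 (67.6% higher), and the 3 member calls stood in all of these. Without adjustment, p was under 0.05 for 9 higher members, against 14.6% of all tested genes, and for 8 lower members, against 14.1%. DESeq2 called 7 members higher, adding NFKB2, ICAM1, CXCL16, IL24 and IL6R, against 8.07% of all tested genes. It called 4 lower, adding IL1B, LIF and TNIP2, against 6.69%. To the edgeR calls limma-voom added LIF alone, with 2.57% of all tested genes higher and 2.49% lower. On the scale of log2 CPM, which is read counts scaled to library size, the groups did not overlap for 21 of the 45 members, 10 higher and 11 lower in shMTHFD2, against 37.8% of all tested genes. The median log2 fold change of the 45 was -0.14, beside 0.01 over all tested genes.

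**Figure D2:**
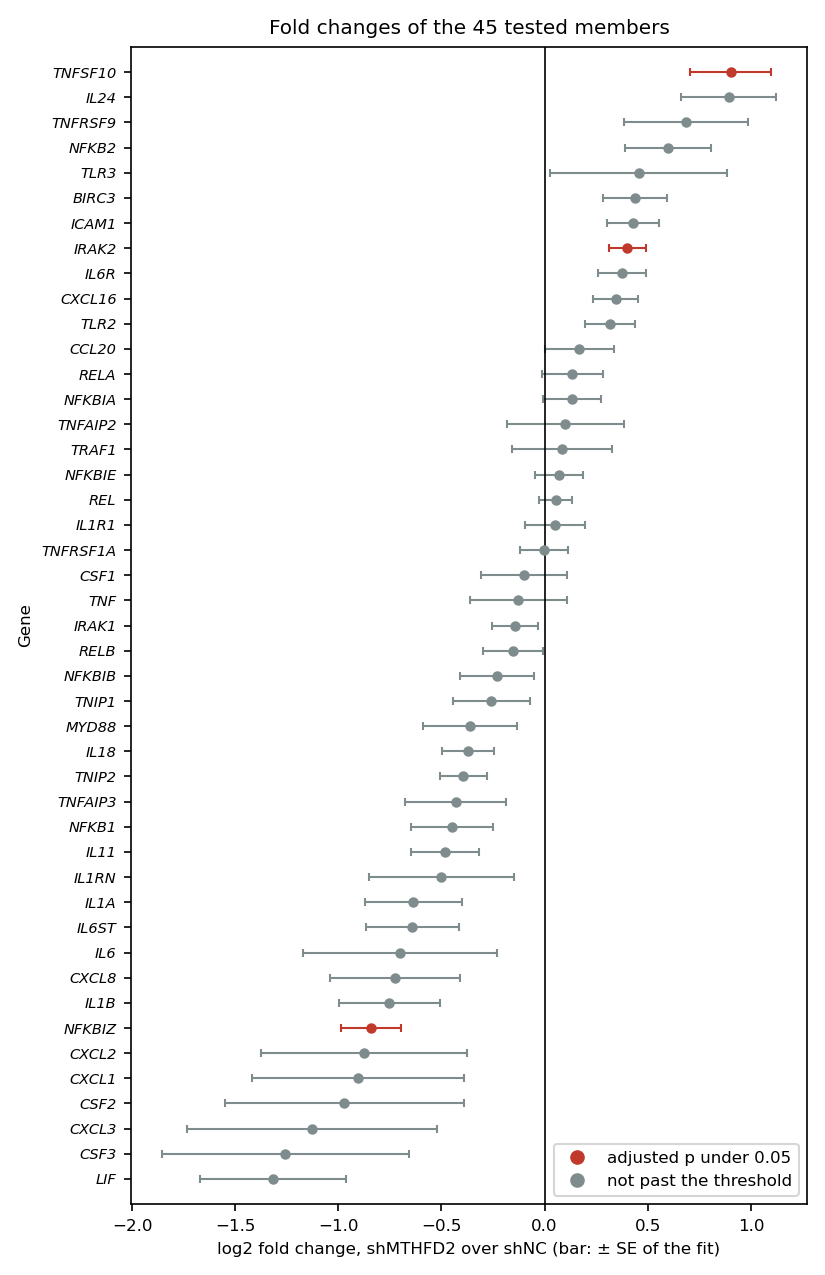
Log2 fold change, shMTHFD2 over shNC, of the 45 tested members, with bars of ± 1 SE of the edgeR fit (3 libraries per group); red marks an adjusted p under 0.05. TNFSF10 (0.90) is at the top, NFKBIZ (-0.84) has a short bar among the lower genes, and the long bars of CXCL1, CXCL2, CXCL3, CSF2 and CSF3 come with differences between the knockdown libraries.

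NFKBIZ encodes IkB-zeta, a nuclear IkB protein that acts with NF-kB at a subset of inflammatory genes. It was at 20.7, 22.7 and 31.5 TPM in shMTHFD2, against 41.7, 42.9 and 44.1 TPM in shNC, and every knockdown library lay below every control. The mean was 24.9 ± 5.73 TPM in shMTHFD2 and 42.9 ± 1.20 TPM in shNC (SD, n = 3 each), a log2 fold change of -0.84 (SE 0.15, edgeR adjusted p = 0.0275). TNFSF10, the death ligand TRAIL, was at 34.9, 30.8 and 38.6 TPM in shMTHFD2, against 17.9, 13.4 and 22.1 TPM in shNC. The means were 34.8 ± 3.94 TPM in shMTHFD2 and 17.8 ± 4.35 TPM in shNC (SD, n = 3 each), with a log2 fold change of 0.90 (SE 0.20, edgeR adjusted p = 0.0443). The rise was seen in all 3 knockdown libraries, which lay above all controls. IRAK2, a kinase-like protein of the complex below Toll-like and interleukin-1 receptors, was at 42.5, 38.7 and 39.9 TPM in shMTHFD2, against 29.5, 29.1 and 29.9 TPM in shNC. Its change was small and even across libraries, with a log2 fold change of 0.40 (SE 0.09, edgeR adjusted p = 0.0471). All 3 calls ended when shMTHFD2 replicate 1 or any of the shNC libraries was left out, with adjusted p from 0.102 to 0.169 for NFKBIZ, 0.0931 to 0.206 for TNFSF10 and 0.145 to 0.237 for IRAK2. In these fits, calls over all tested genes numbered at most 20 higher and 7 lower. The IRAK2 call also ended with no filter on low counts (adjusted p = 0.064).

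**Figure D3:**
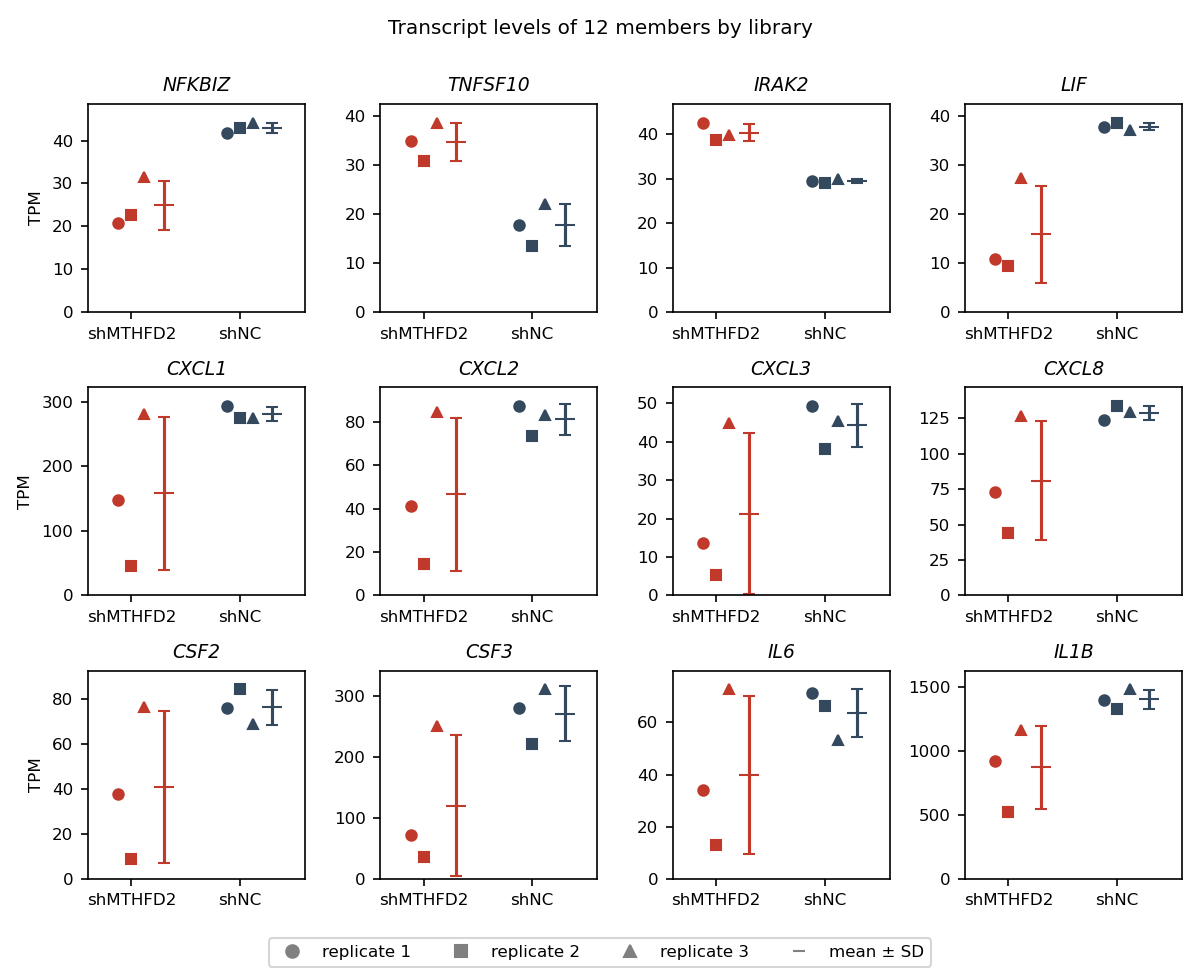
TPM of 12 members in each library (circle, square and triangle for replicates 1, 2 and 3) with mean ± SD (n = 3) beside the points, shMTHFD2 in red and shNC in dark blue; every y axis is linear and starts at 0. NFKBIZ, TNFSF10, IRAK2, LIF and IL1B separate the groups, whereas in CXCL1, CXCL2, CXCL3, CXCL8, CSF2, CSF3 and IL6 the triangle of shMTHFD2 replicate 3 lies near the controls and the square of replicate 2 far below them.

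The 5 NF-kB subunits were expressed at moderate levels, and 0 of 5 passed the test (1 at an unadjusted p under 0.05 in edgeR, NFKB2, which DESeq2 also called). RELA, the transactivating p65 subunit, was at 96.5, 143 and 132 TPM in shMTHFD2, against 113, 104 and 109 TPM in shNC, and the groups overlapped (log2 0.13, SE 0.15). NFKB2, the precursor of p52 in the non-canonical branch, was at 91.5, 145 and 86.8 TPM in shMTHFD2, against 69.6, 65.2 and 73.3 TPM in shNC. All 3 knockdown values of NFKB2 lay above the controls, replicate 2 the most (log2 0.60, SE 0.21, edgeR adjusted p = 0.122). NFKB1, the precursor of p50, was at 29.3, 18.1 and 33.4 TPM in shMTHFD2, against 34.6, 37.2 and 33.0 TPM in shNC (log2 -0.45, SE 0.20, edgeR adjusted p = 0.181). Replicate 2 was by far the lowest. Replicate 3 lay among the controls in TPM but below every control in log2 CPM (-0.19 from the shNC mean). RELB, the partner of p52, was at 22.7, 21.9 and 31.4 TPM in shMTHFD2, against 27.0, 28.8 and 25.7 TPM in shNC, with replicate 3 above the controls and the other two below. REL had a log2 fold change of 0.05 (SE 0.08). The precursor genes NFKB1 and NFKB2 thus moved in opposite directions in shMTHFD2 replicate 2, at log2 -0.98 for NFKB1 and 1.05 for NFKB2 relative to the shNC mean of log2 CPM.

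Among the 7 IkB proteins and feedback inhibitors, NFKBIZ fell and the other 6 did not pass. NFKBIA, the classical IkB-alpha, was at 396, 288 and 431 TPM in shMTHFD2, against 342, 303 and 333 TPM in shNC. Replicate 2 was the lowest of the 6 libraries and replicates 1 and 3 were the highest (log2 0.13, SE 0.14). TNFAIP3, the ubiquitin-editing inhibitor A20, was at 148, 79.5 and 174 TPM in shMTHFD2, against 169, 180.1 and 163 TPM in shNC (log2 -0.43, SE 0.24, edgeR adjusted p = 0.275). TNIP1, an A20-binding protein, was at 274, 195 and 359 TPM in shMTHFD2, against 334, 309 and 316 TPM in shNC. TNFAIP3 and TNIP1 were both lowest in replicate 2 and near or above the controls in replicate 3. In log2 CPM, replicate 3 of TNFAIP3 lay slightly below every control (-0.09 from the shNC mean). NFKBIB, IkB-beta, went the other way among the knockdown libraries, with 38.8, 55.3 and 42.8 TPM in shMTHFD2 against 52.0, 57.7 and 48.6 TPM in shNC. TNIP2, another A20-binding protein, had a log2 fold change of -0.39 (SE 0.11, edgeR adjusted p = 0.0808) with no overlap of the groups, and NFKBIE was at 0.07.

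The 4 induced signalling and adhesion genes had positive fold changes, and 0 of 4 passed the test (2 at an unadjusted p under 0.05 in edgeR; DESeq2 called ICAM1). ICAM1, an adhesion molecule for leukocytes, was at 302, 259 and 375 TPM in shMTHFD2, against 226, 215 and 227 TPM in shNC (log2 0.43, SE 0.13, edgeR adjusted p = 0.0849). BIRC3, the ubiquitin ligase cIAP2, was at 25.9, 19.7 and 31.2 TPM in shMTHFD2, against 18.5, 17.7 and 18.8 TPM in shNC (log2 0.44, SE 0.16, edgeR adjusted p = 0.125). Both genes were higher in every knockdown library than in any control, and highest in replicate 3. TNFAIP2 was at 84.7, 37.0 and 89.7 TPM in shMTHFD2, against 65.5, 59.9 and 64.8 TPM in shNC, so that replicate 2 lay below the controls and the other two above. TRAF1, an adaptor of tumour necrosis factor receptors, was scarce, with 2.44, 2.23 and 3.62 TPM in shMTHFD2 against 2.76, 1.90 and 2.86 TPM in shNC.

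Of 7 chemokines in the table, 6 were tested and 0 passed (1 at an unadjusted p under 0.05 in edgeR, CXCL16). CXCL1, a ligand of CXCR2 that attracts neutrophils, was at 147, 45.4 and 281 TPM in shMTHFD2, against 293, 275 and 275 TPM in shNC. Its shMTHFD2 mean of 158 ± 118 TPM lay below the 281 ± 10.6 TPM of shNC (SD, n = 3 each), and the log2 fold change was -0.90 (SE 0.51, edgeR adjusted p = 0.275). Most of the spread was between knockdown libraries: replicate 2 held 16.2% of the control mean and replicate 1 52.4%, while replicate 3 was within the range of the controls. CXCL2, a close relative, was at 40.9, 14.2 and 84.2 TPM in shMTHFD2, against 87.1, 73.3 and 82.9 TPM in shNC (log2 -0.88, SE 0.50). CXCL3 was at 13.7, 5.29 and 44.9 TPM in shMTHFD2, against 49.3, 38.2 and 45.4 TPM in shNC (log2 -1.13, SE 0.61). Like CXCL1, these relatives act on CXCR2. CXCL8, interleukin-8, was at 73.1, 43.8 and 126 TPM in shMTHFD2, against 124, 134 and 129.6 TPM in shNC (log2 -0.73, SE 0.32, edgeR adjusted p = 0.178). These 4 chemokines shared the same order, with replicate 2 lowest, replicate 1 next and replicate 3 within the range of the controls in TPM. In log2 CPM, replicate 3 lay slightly below every control for CXCL1 (-0.10 from the shNC mean) and CXCL8 (-0.12).

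The remaining tested chemokines, CCL20 and CXCL16, had the same order of knockdown libraries but did not lie below the controls. CCL20, a ligand of CCR6, was at 70.5, 63.8 and 86.0 TPM in shMTHFD2, against 63.0, 51.0 and 74.4 TPM in shNC, and the groups overlapped (log2 0.17, SE 0.17). CXCL16, a membrane-bound chemokine, had a log2 fold change of 0.34 (SE 0.11, edgeR adjusted p = 0.0989) with every knockdown library above every control. CXCL5 was listed at 0 TPM in 4 of 6 libraries and at 0.04 TPM in shNC replicates 2 and 3, from about 1 count each, although its promoter window holds the same decamer as CXCL1, CXCL2 and CXCL3. A count of 0 allows up to 3 counts per library, so no difference was detectable for CXCL5.

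The interleukin-1 family held the most abundant members, and 0 of 4 passed the test (3 lower at an unadjusted p under 0.05 in edgeR; DESeq2 called IL1B). IL1B, interleukin-1-beta, had the highest mean level of the 46 members in both groups, at 924, 524 and 1166 TPM in shMTHFD2, against 1402, 1329 and 1483 TPM in shNC. Each knockdown library was below each control (log2 -0.75, SE 0.24, edgeR adjusted p = 0.105). IL1A, interleukin-1-alpha, was next, at 464, 296 and 651 TPM in shMTHFD2, against 701, 682 and 717 TPM in shNC (log2 -0.64, SE 0.23, edgeR adjusted p = 0.133). IL18 was at 97.6, 105 and 82.1 TPM in shMTHFD2, against 119.6, 121 and 115 TPM in shNC, with replicate 3 rather than 2 the lowest (log2 -0.37, SE 0.12, edgeR adjusted p = 0.113). IL1RN, the receptor antagonist, was scarce, with 1.04, 0.53 and 0.86 TPM in shMTHFD2 against 0.98, 1.15 and 1.19 TPM in shNC.

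Among IL6, IL11, LIF and IL24, 0 of 4 passed in edgeR (1 higher and 2 lower at an unadjusted p under 0.05), while DESeq2 called LIF and IL24. LIF, a cytokine that signals through IL6ST, was at 10.8, 9.40 and 27.3 TPM in shMTHFD2, against 37.7, 38.6 and 37.2 TPM in shNC. Replicates 1 and 2 held 28.6 and 24.9% of the control mean and replicate 3 held 72.1% (log2 -1.31, SE 0.35, edgeR adjusted p = 0.07). IL6 was at 34.1, 12.8 and 72.7 TPM in shMTHFD2, against 71.3, 66.1 and 53.4 TPM in shNC (log2 -0.70, SE 0.47, edgeR adjusted p = 0.348). Replicate 2 of IL6 was the lowest library, and replicate 3 was above all controls in TPM but just under shNC replicate 1 in log2 CPM. IL11 was at 14.9, 12.6 and 20.1 TPM in shMTHFD2, against 22.1, 19.7 and 21.9 TPM in shNC (log2 -0.48, SE 0.16, edgeR adjusted p = 0.115). IL24, a cytokine of the interleukin-10 family, ran opposite to these, at 198, 241 and 149.7 TPM in shMTHFD2, against 103.5, 84.0 and 129 TPM in shNC (log2 0.89, SE 0.23, edgeR adjusted p = 0.065). IL24 was highest in replicate 2, the library in which IL6 and LIF were lowest.

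Of the 3 colony-stimulating factors, 0 passed edgeR's test, 0 reached 0.05 without adjustment, and DESeq2 and limma-voom also called 0. CSF3, the granulocyte factor G-CSF, was at 72.6, 36.0 and 252 TPM in shMTHFD2, against 282, 222 and 312 TPM in shNC (log2 -1.26, SE 0.60, edgeR adjusted p = 0.21). CSF2, the granulocyte and macrophage factor GM-CSF, was at 37.6, 8.82 and 76.3 TPM in shMTHFD2, against 75.7, 84.2 and 68.7 TPM in shNC (log2 -0.97, SE 0.58). Replicate 2 held 13.3% of the control mean for CSF3 and 11.6% for CSF2, and replicate 3 lay within the controls for both in TPM. CSF1, the macrophage factor, changed less, with 27.0, 16.5 and 31.9 TPM in shMTHFD2 against 27.6, 25.7 and 24.2 TPM in shNC. TNF, the ligand of TNFRSF1A, was at 45.6, 24.9 and 52.5 TPM in shMTHFD2, against 39.9, 43.3 and 44.6 TPM in shNC (log2 -0.13, SE 0.23). CSF1 and TNF were below the controls in replicate 2 and above them in replicate 3.

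The 7 receptors gave 0 calls (2 higher and 1 lower at an unadjusted p under 0.05 in edgeR; DESeq2 called IL6R). TNFRSF1A, the main receptor of TNF, was at 112, 97.7 and 135 TPM in shMTHFD2, against 113, 106 and 114 TPM in shNC, with a log2 fold change of 0.00 (SE 0.11). IL6ST, gp130, the shared signalling chain of the interleukin-6 family, was at 18.2, 14.6 and 28.3 TPM in shMTHFD2, against 31.6, 34.3 and 25.6 TPM in shNC (log2 -0.64, SE 0.22, edgeR adjusted p = 0.121). It had the order of its ligand LIF, lowest in replicate 2. TLR2, a receptor of bacterial lipopeptides, was at 20.5, 21.1 and 26.2 TPM in shMTHFD2, against 16.8, 15.6 and 18.3 TPM in shNC (log2 0.32, SE 0.12, edgeR adjusted p = 0.145). IL1R1, the interleukin-1 receptor, was at 19.3, 12.9 and 15.8 TPM in shMTHFD2, against 15.3, 14.9 and 14.7 TPM in shNC. IL6R had a log2 fold change of 0.38 (SE 0.12, edgeR adjusted p = 0.0931), and TNFRSF9 (0.69, SE 0.30) and TLR3 (0.46, SE 0.43) had mean levels under 5 TPM. Of the adaptors beside IRAK2, MYD88 was at 35.4, 21.7 and 46.2 TPM in shMTHFD2, against 41.7, 42.8 and 43.2 TPM in shNC (log2 -0.36, SE 0.23). The kinase IRAK1 was at 189.8, 149 and 192 TPM in shMTHFD2, against 199.6, 189.7 and 177 TPM in shNC (log2 -0.14, SE 0.11), and only replicate 2 lay below the controls.

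Set against the controls 1 library at a time, the members differed between the knockdown libraries. In shMTHFD2 replicate 2, 28 of the 45 members were below every shNC library in log2 CPM, against 43.5% of all tested genes. In replicate 1 it was 22 members (all tested genes 41.9%), and in replicate 3 it was 13 (all tested genes 37.2%). Above every shNC library were 13 members in replicate 1 (all tested genes 36.5%), 13 in replicate 2 (all tested genes 44.2%) and 23 in replicate 3 (all tested genes 36.5%). The members' median log2 difference from the shNC mean was -0.07, -0.35 and 0.08 in replicates 1, 2 and 3, beside -0.02, 0.01 and 0.00 over all tested genes. The replicate 1 median was -0.17, -0.22 and -0.15 without shNC replicates 1, 2 and 3, and 0.0080 with upper quartile scaling, and that of replicate 3 was 0.055 without shNC replicate 2 and 0.041 without shNC replicate 3. The spread over members was widest in replicate 2, where the values ran from -3.08 (CSF2) to 1.25 (IL24). In replicate 2, 12 members were at least 1 log2 unit below the control mean, against 5.22% of all tested genes. In replicate 1, 6 members were that low, against 1.42% of all tested genes, and 5 of these were also among the 12. In replicate 3, 0 members were that low, against 0.904% of all tested genes. In the other direction, 3 members were at least 1 log2 unit above the control mean in replicate 2, against 10.4% of all tested genes. In replicate 1 it was 0 members (all tested genes 3.84%), and in replicate 3 it was 1 (all tested genes 2.96%). Differences of this size were thus most frequent in replicate 2 over all tested genes too.

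**Figure D4:**
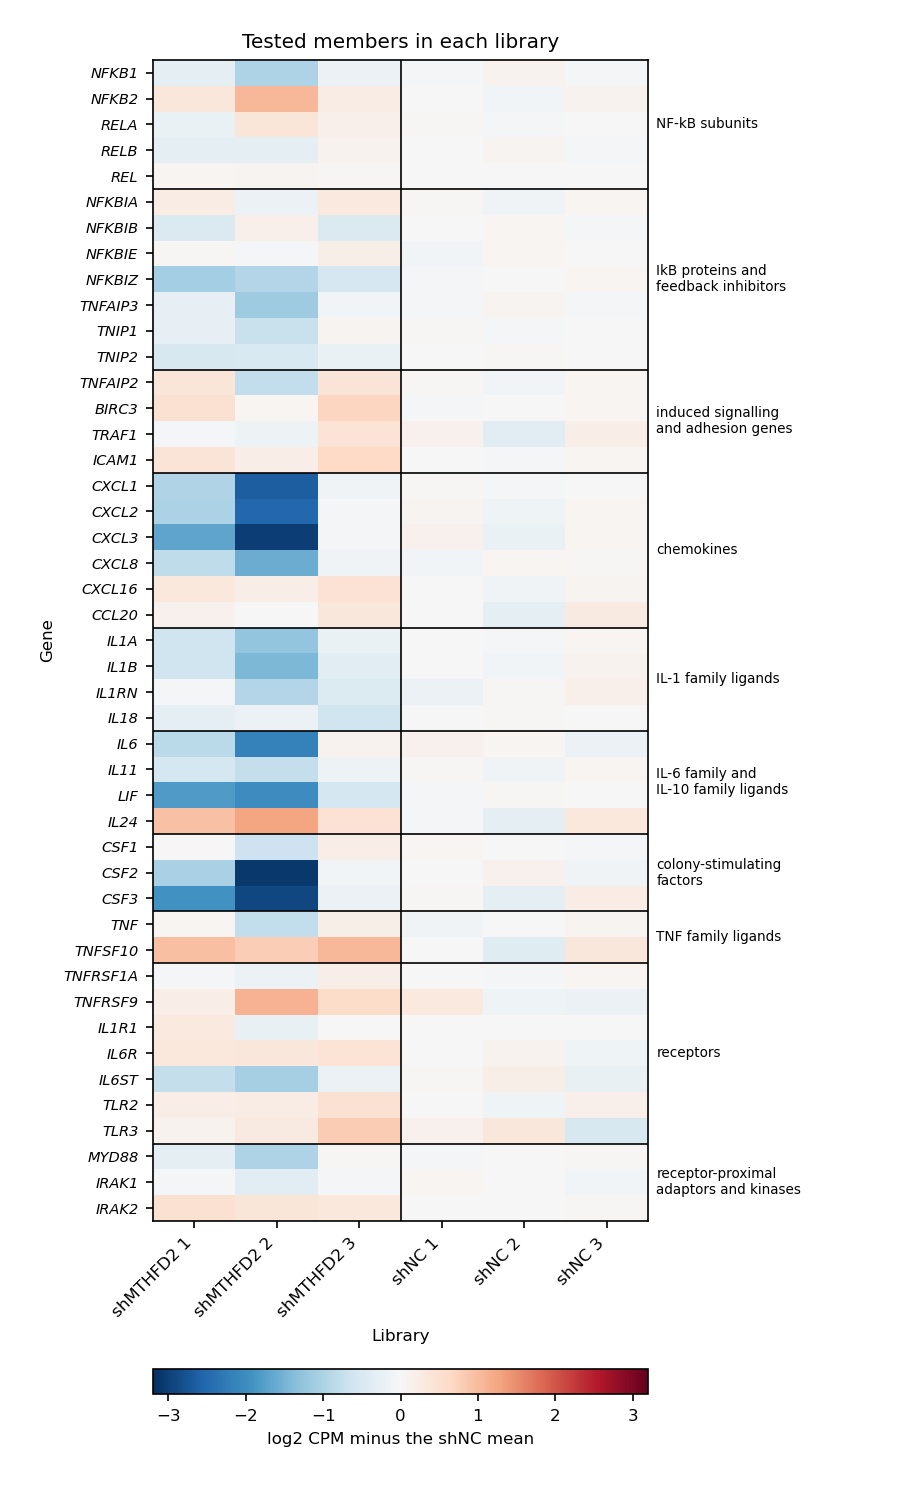
Log2 CPM of the 45 tested members (rows, grouped by role) minus the shNC mean, in each of the 3 shMTHFD2 and 3 shNC libraries (columns); blue is lower and red higher. The dark blue block holds CXCL1, CXCL2, CXCL3, CSF2, CSF3, IL6 and LIF in shMTHFD2 replicate 2. It is paler in replicate 1, for LIF only slightly, and nearly white in replicate 3 except for LIF. TNFSF10 is light red in all 3, and IRAK2 a fainter red.

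Ordering the knockdown libraries for each member, 17 of the 45 were lowest in replicate 2, then 1, then 3, with replicates 1 and 2 below every control, against 20.8% of all tested genes. That order is the one CXCL1, CXCL2, CXCL3 and CXCL8 showed above, and other orders were not counted, so the share is a description only. The 17 were CXCL1, CXCL2, CXCL3, CXCL8, IL1A, IL1B, IL6, IL11, LIF, CSF2, CSF3, IL6ST, MYD88, NFKB1, RELB, TNFAIP3 and TNIP1. Replicate 3 exceeded replicate 2 by 7.93-fold for CSF2, 7.71-fold for CXCL3, 6.57-fold for CSF3, 5.81-fold for CXCL1, 5.51-fold for CXCL2 and 4.86-fold for IL6. At the other end, NFKB2 in replicate 3 was 0.568 times and IL24 0.579 times its value in replicate 2. MTHFD2 itself was lowest in replicate 2, then 1, then 3 in the values above, and the part of the remaining MTHFD2 level in these differences was not tested.

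Leaving out 1 knockdown library showed how far the calls rested on it. Without shMTHFD2 replicate 3, 14 of the 45 members fell, against 12.6% of all tested genes, and 5 rose, against 13.6%. Those that fell were CXCL1, CXCL2, CXCL3, CXCL8, CSF2, CSF3, IL1A, IL1B, IL6, IL11, LIF, IL6ST, NFKBIZ and TNIP2, and those that rose were NFKB2, ICAM1, IL24, TNFSF10 and IRAK2. The log2 fold change was then -2.33 for CSF3 (SE 0.31, edgeR adjusted p = 0.00821), -2.22 for CXCL3 (SE 0.35, adjusted p = 0.0118) and -1.90 for LIF (SE 0.11, adjusted p = 0.00125). Without shMTHFD2 replicate 2, 9 members rose, against 7.14% of all tested genes, and 4 fell, against 7.09%. The 9 were TNFSF10, IRAK2, ICAM1, BIRC3, TNFAIP2, CXCL16, NFKB2, NFKBIA and IL6R, and the 4 were NFKBIZ, NFKBIB, IL1B and IL18. BIRC3 then had a log2 fold change of 0.61 (SE 0.08, edgeR adjusted p = 0.00477) and ICAM1 one of 0.55 (SE 0.09, adjusted p = 0.00945). For CSF3, CXCL3, LIF, BIRC3 and ICAM1 the library left out was the knockdown library nearest the controls. It was also the nearest for all the other members that fell without shMTHFD2 replicate 3. The larger changes and smaller SEs of all these genes come with that choice and are no separate evidence of an effect. NFKBIZ, IL1B, NFKB2, ICAM1, TNFSF10 and IRAK2 were called, in the same direction, in both of these fits. Both fits hold shMTHFD2 replicate 1 and all shNC libraries, and the share of all tested genes called in both was not counted. This overlap is therefore a description only. When shMTHFD2 replicate 1 or any shNC library was left out, 0 members were called. Those fits made few calls anywhere: 0.144% of all tested genes rose and 0.0504% fell without shMTHFD2 replicate 1, and 0.00716% rose and 0% fell without shNC replicate 1 and likewise without shNC replicate 2. Without shNC replicate 3, 0.0143% rose and 0.0215% fell, so the 0 members called there are a fact of the whole table.

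Other genes of the pathway were read from 3 lists chosen by role. Of 32 upstream signalling genes tested, SQSTM1, a ubiquitin-binding scaffold, rose and 0 fell. SQSTM1 was at 298, 444 and 314 TPM in shMTHFD2, against 196, 209.98 and 183 TPM in shNC (log2 0.79, SE 0.17, edgeR adjusted p = 0.0444). Of 18 further receptors, CD40, a receptor of the non-canonical branch, rose and 0 fell. CD40 was at 16.3, 21.2 and 19.7 TPM in shMTHFD2, against 9.14, 9.67 and 12.4 TPM in shNC (log2 0.83, SE 0.18, edgeR adjusted p = 0.0443). Of 23 further targets and ligands, MMP9 rose and PTGS2 fell. MMP9, a gelatinase that cuts matrix proteins, was at 17.3, 28.7 and 18.6 TPM in shMTHFD2, against 4.36, 4.53 and 4.36 TPM in shNC (log2 2.24, SE 0.23, edgeR adjusted p = 0.00776). PTGS2, the inducible cyclooxygenase, was at 4.87, 4.17 and 7.22 TPM in shMTHFD2, against 15.5, 15.2 and 16.6 TPM in shNC (log2 -1.60, SE 0.19, edgeR adjusted p = 0.0123). For all 4 of these genes the groups did not overlap, as was so for 37.8% of all tested genes. Over the 3 lists, 3 of 73 tested genes rose and 1 fell, against 2.97% and 2.47% of all tested genes. All 4 calls ended when any of the shNC libraries was left out, and without shMTHFD2 replicate 1 only that of MMP9 stood. The median log2 fold changes of the 3 lists were -0.02, 0.00 and -0.12, beside 0.01 over all tested genes.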

How the data were processed

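Bulk RNA sequencing gave 6 libraries, 3 shMTHFD2 and 3 shNC, grouped by title. The design text calls them biological replicates and says no more of the cultures, and p-values cover only the spread among the 6. For the aligner, counter, annotation and strand handling the entry is: not given in the sources used here; without strand, reads of antisense partners cannot be told apart. The submitters' processing notes name mm10, a mouse build, although the organism is human and the symbols are human, so no coordinates were taken with the table. Columns were matched to libraries by their names.

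Per the file headers, the authors deposited TPM, FPKM, read counts and normalized counts. The deposited read counts are estimated counts, since 53.0 to 56.0% of values are whole within 0.001. The deposited TPM values sum to about the same total per library. The deposited FPKM values and the normalized counts, a signal scaled by the authors per library, were not used. Columns of per-library values left unused for want of a sample numbered 0, so none is missing from the comparisons.

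Estimated counts were rounded, filtered with filterByExpr, scaled by TMM and tested with edgeR's quasi-likelihood F test (robust, no covariate; edgeR 4.0.16, limma 3.58.1, DESeq2 1.42.0, R 4.3.3), with Benjamini-Hochberg adjustment over 13710 genes at 0.05. SE was taken as the size of the log2 change over the root of the F statistic. The biological coefficient of variation was 16.7%. Differences per library used log2 CPM with a prior count of 2. The test was checked on counts simulated with the same dispersion in both groups, so that check does not cover the unlike spreads given next. No libraries were duplicates. Chi-square per degree of freedom was 27.2, 39.2 and 77.4 between shMTHFD2 libraries and 3.5, 4.19 and 7.47 between shNC libraries. The fit took the same dispersion of a gene for both groups, so SE and adjusted p pool these unlike spreads. A count of 0 allows 3 counts, for counting error only.

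The members, roles and lists were chosen with earlier results of these data known. Values in all libraries are given for members past the threshold, for up to 4 members per role with the highest mean TPM and for non-overlapping members with a log2 change of at least 1; a further rule on libraries of opposite sign named 0 members. CXCL3, shown for its likeness to CXCL1 and CXCL2, and CXCL5 were added after their values were seen. List members past the threshold were named. Alternatives were other scalings, filters and tools, limma-trend on log2(TPM + 1), the replicate number as a block and each library left out. Promoters came from RefSeq (GRCh38.p14) and shared words from GENCODE 29 transcripts, with Python 3.11.15, pandas 2.3.3, NumPy 2.4.6 and matplotlib 3.10.9.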

Additional observations from a re-analysis of the deposited data

How the results depend on the processing

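With DESeq2 size factors, total counts or a mean of at least 5 CPM, the counts of members that rose (2) and fell (1) were as reported. Members that rose numbered 7 in DESeq2, 1 with no filter and 0 with the replicate block; those that fell numbered 4 in DESeq2, 2 in limma-voom and 0 with the block. Of 73 tested wider pathway genes, 8 rose and 5 fell in DESeq2, against 8.07% and 6.69% of all tested genes. With limma-trend on TPM 6 rose and 2 fell, and 1 rose with the block. Over all tested genes, 1106 rose and 917 fell in DESeq2 and 11 and 5 with the block, and falls numbered 210 with upper quartile scaling and 192 with limma-trend on TPM. With a library left out, counts ranged from 0 to 9 (members that rose), 0 to 14 (members that fell), 0 to 8 and 0 to 15 (wider genes), and 1 to 1895 and 0 to 1756 (all tested genes). The cause of these differences was not tested. The block leaves fewer degrees of freedom, as does each fit with a library left out. The numbers did not pair the libraries: deviations of same-numbered libraries correlated at 0.00, -0.24 and -0.19. With the block, adjusted p was 0.0867 for NFKBIZ, 0.0897 for TNFSF10 and 0.167 for IRAK2.

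TNFRSF1A, at 0.00, turned positive with DESeq2's size factors (0.0111), upper quartile scaling (0.0563), total counts (0.0418), the 5 CPM filter (0.0456), DESeq2 (0.0111) and TPM (0.0393). With a library left out, fold changes not past the threshold turned sign for TNFRSF1A (-0.0915 to 0.10), TNFAIP2 (-0.0698 to 0.42), TRAF1 (-0.11 to 0.22), CSF1 (-0.26 to 0.14), TNF (-0.29 to 0.14) and IL1R1 (-0.11 to 0.19). The members' median per library moved by less than the spread between the knockdown libraries under each alternative run. Depth limits CXCL5, TLR3, IL1RN, TNFRSF9 and TRAF1, whose mean levels are under 5 TPM.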
